A study of Mus musculus with 9 samples.

Results

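Transcripts of 10 genes that make the granule and cytosolic proteins of neutrophils were followed array by array in mouse mast cell cultures of 3 Ahr genotypes. They are S100a8, S100a9, Chil3, Prtn3, Elane, Mpo, Ltf, Ngp, Camp and Lcn2, and every probe that the platform annotation gives to one of these symbols was taken, whatever its signal. That rule found 15 probes for all 10 genes, out of 25697 probes and 16593 named genes on the array. Chil3 and Mpo have 3 probes each, Ltf has 2 and the other genes have 1.

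The cultures were bone-marrow-derived mast cells, which are grown from marrow in medium that supplies IL-3, here 30% medium conditioned by the WEHI-3 leukaemia line. Ahr encodes the aryl hydrocarbon receptor, a transcription factor switched on by small aromatic ligands. Control mice carried the normal gene, AhR null mice lacked a working receptor, and AhR-d mice carried the d allele, known for a receptor with weaker ligand binding. Each genotype had 3 arrays, 1 from each of 3 culture batches, and the array number used here is the batch number.

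All 3 groups are labelled as strain C57BL/6J, and all cultures shared the same handling. Mast cells were enriched after 4 weeks by beads that bind and remove other cells, and were held for 4 h without cytokine before lysis. The age and sex of the mice, and whether each batch came from a separate animal, are not given in the sources used here. The p-values therefore measure the spread between these cultures, which may be technical. The alleles were carried by the whole animal, so precursors of every blood lineage in the marrow had them too.

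Neutrophils build their granules in sequence while they mature in the marrow. Primary granules are filled at the promyelocyte stage with myeloperoxidase and serine proteases, and secondary granules later with lactoferrin, cathelicidin and lipocalin. S100a8 and S100a9 proteins pair into calprotectin, the main calcium-binding protein of neutrophil cytosol, which is also made by monocytes. Chil3, also called Ym1, is a chitinase-like protein made by neutrophil precursors and by some macrophages. Mature mast cells are not among the known main sources of these products, and C/EBP and PU.1 family transcription factors are known for driving many of the genes in granulocytes.

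The mast cell identity in the labels was checked on 12 mast cell genes. Between 11 and 12 of them were detected on each control array and all 12 on every other array. The proteases Cma1, Tpsb2 and Cpa3 and the IgE receptor chain Fcer1a had normalised log2 levels between 14.51 and 15.34 on all 9 arrays. Quantile normalisation brings the brightest probes of each array to much the same values, so this evenness was largely set in advance. Other genes of the list varied more: Mcpt4 ran from 5.38 to 12.69, Tpsab1 from 6.74 to 10.48 and Hdc from 10.55 to 13.95. Mean raw intensity ran from 324 on control 1 to 684 on AhR-d 1, and the share of 18312 genes and unnamed probes detected ran from 34.2% on AhR-d 3 to 40.3% on AhR null 2. A probe counted as detected on an array when its deposited detection p-value was under 0.01. Levels below are normalised log2 intensity, after background correction and quantile normalisation, and intensity is the deposited value.

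One array stood apart from its group before any test. On AhR-d 1, none of the 10 genes was detected, while AhR-d 2 and AhR-d 3 gave some of the highest levels of the study. Results for AhR-d are therefore given with and without AhR-d 1.

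Upstream sequences of 6 of the genes are shown because 5 of them (S100a8, S100a9, Chil3, Prtn3 and Mpo) were detected on the same 5 arrays, and the other, Camp, was detected on none. Each sequence is the 250 bases before the gene's start, read 5′ to 3′ on the gene's strand, from RefSeq on build GRCm38.p6. Capitals mark 2 motifs on either strand: TTNNGNAA, letters of a C/EBP site, and GAGGAA, a core bound by PU.1.
The S100a8 window is chr3:90668821-90669070 on the plus strand, with 1 C/EBP match and 2 PU.1 matches.
S100a8: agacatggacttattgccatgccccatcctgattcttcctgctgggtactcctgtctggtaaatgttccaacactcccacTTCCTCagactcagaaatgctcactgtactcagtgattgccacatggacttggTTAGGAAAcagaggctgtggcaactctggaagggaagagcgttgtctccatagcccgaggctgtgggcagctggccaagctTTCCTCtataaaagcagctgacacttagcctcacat
The S100a9 window is chr3:90695722-90695971 on the minus strand, with 2 C/EBP matches.
S100a9: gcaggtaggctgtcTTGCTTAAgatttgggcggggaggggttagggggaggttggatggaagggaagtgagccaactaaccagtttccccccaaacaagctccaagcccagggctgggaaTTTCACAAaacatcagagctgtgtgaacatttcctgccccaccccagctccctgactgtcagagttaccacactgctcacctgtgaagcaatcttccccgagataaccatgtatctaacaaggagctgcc
The Chil3 window is chr3:106167565-106167814 on the minus strand, with 3 C/EBP matches.
Chil3: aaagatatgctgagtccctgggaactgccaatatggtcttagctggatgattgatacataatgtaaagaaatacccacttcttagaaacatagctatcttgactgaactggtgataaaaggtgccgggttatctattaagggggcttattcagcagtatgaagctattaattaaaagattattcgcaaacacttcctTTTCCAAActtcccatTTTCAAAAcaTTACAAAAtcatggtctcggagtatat
The Prtn3 window is chr10:79879417-79879666 on the plus strand, with 1 PU.1 match.
Prtn3: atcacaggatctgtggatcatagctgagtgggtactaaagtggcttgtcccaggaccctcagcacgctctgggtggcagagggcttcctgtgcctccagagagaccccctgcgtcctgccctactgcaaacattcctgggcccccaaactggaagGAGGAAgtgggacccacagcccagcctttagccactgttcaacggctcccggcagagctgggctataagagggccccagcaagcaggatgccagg
The Mpo window is chr11:87793534-87793783 on the plus strand, with 2 PU.1 matches.
Mpo: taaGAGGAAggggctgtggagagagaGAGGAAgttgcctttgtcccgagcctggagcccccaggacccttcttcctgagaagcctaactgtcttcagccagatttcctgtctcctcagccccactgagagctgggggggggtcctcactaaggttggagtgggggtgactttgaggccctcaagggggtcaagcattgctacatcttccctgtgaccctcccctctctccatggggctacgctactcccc
The Camp window is chr9:109849457-109849706 on the minus strand and holds neither motif.
Camp: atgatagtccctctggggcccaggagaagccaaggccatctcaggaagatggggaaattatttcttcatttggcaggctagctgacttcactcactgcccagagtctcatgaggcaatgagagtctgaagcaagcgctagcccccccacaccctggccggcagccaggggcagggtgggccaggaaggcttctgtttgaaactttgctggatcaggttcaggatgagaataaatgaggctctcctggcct

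Among all 10 genes, 6 windows held TTNNGNAA and 6 held GAGGAA. The same letters occurred in 36.8% and 23.3% of 32851 promoter windows of 250 bases. No bases of the motifs overlapped each other in the 10 windows. Ngp, which like Camp was detected on 0 arrays, had 3 C/EBP matches, so matches did not separate detected from undetected genes. A match describes letters only and says nothing of binding in these cells. By RefSeq order S100a8 and S100a9 are neighbours on chromosome 3, and Prtn3 and Elane are neighbours on chromosome 10. Ltf, Ngp and Camp lie on chromosome 9, apart from one another.

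S100a8 and S100a9 were at background on all control arrays and on AhR-d 1, and were detected on the other 5 arrays. The intensity of S100a8 was 116, 165 and 158 on control arrays 1, 2 and 3, then 191, 2280 and 1880 on the AhR-d arrays and 926, 1260 and 1190 on the AhR null arrays. Its normalised levels were 4.58, 4.55 and 4.82 in control, 4.65, 11.27 and 11.63 in AhR-d, and 9.05, 9.67 and 9.89 in AhR null cultures. The AhR null arrays all lay above every control array, AhR-d 2 and AhR-d 3 lay above every AhR null array, and AhR-d 1 lay among the controls.

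S100a9 encodes the partner subunit. Its intensity was 110, 176 and 154 in control, 185, 724 and 522 in AhR-d, and 398, 359 and 389 in AhR null cultures. Normalised levels were 4.50, 4.71 and 4.72, then 4.58, 9.42 and 9.48, then 7.31, 7.17 and 7.67 in the same order. The groups were ordered as for S100a8, with AhR-d 1 again inside the control range.

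Chil3 gave 3 probes that differed in brightness and had similar patterns. The brightest read 4.72, 4.66 and 4.90 in control, 4.61, 9.91 and 9.72 in AhR-d, and 7.65, 8.42 and 8.88 in AhR null cultures. A second Chil3 probe read 4.83, 4.51 and 4.54, then 4.89, 8.52 and 7.96, then 6.87, 7.89 and 7.96, and was detected on the same 5 arrays. The dimmest Chil3 probe was detected on 3 arrays, at intensities of 259 on AhR-d 2, 288 on AhR null 2 and 282 on AhR null 3. No Chil3 probe was detected in control cultures or on AhR-d 1. On the second and dimmest probes AhR-d 3 did not lie above all AhR null arrays, as it did on the brightest.

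**Figure D1:**
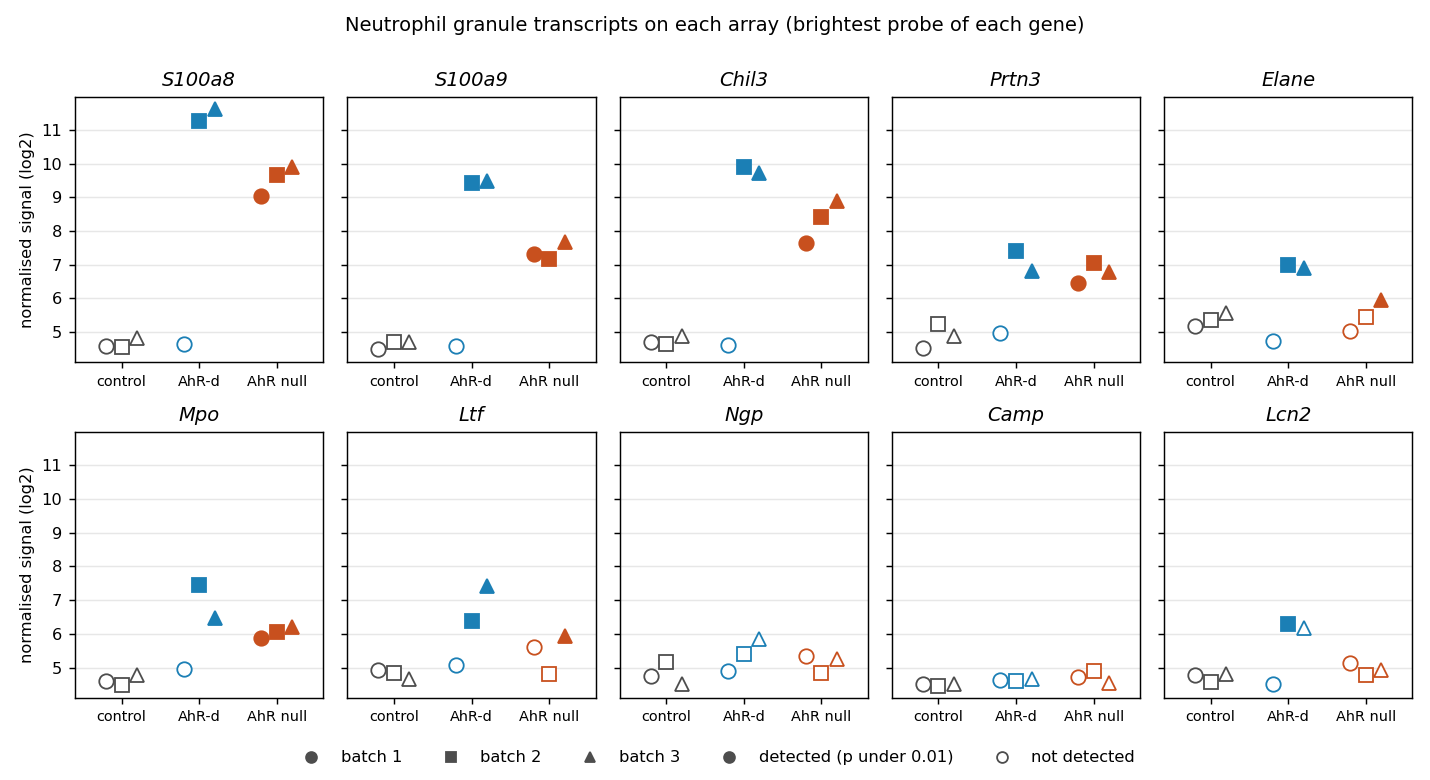
Normalised log2 intensity (vertical axis) of the brightest probe of each of the 10 genes on each of the 9 arrays (horizontal axis, grouped by genotype and batch number); filled points were detected at a detection p under 0.01 and open points were not. S100a8 reached 11.27 and 11.63 on AhR-d 2 and AhR-d 3 against 4.65 on AhR-d 1, and Camp was not detected on any array.

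The primary granule genes Prtn3, Mpo and Elane were lower in range and followed the same arrays, with Elane the exception among them in AhR null cultures. Ctsg and Ms4a3, further primary granule genes described below, did not follow them in AhR null cultures. Prtn3, which encodes proteinase 3, had levels of 4.54, 5.23 and 4.90 in control, 4.98, 7.41 and 6.80 in AhR-d, and 6.46, 7.05 and 6.77 in AhR null cultures. All AhR null arrays lay above all controls, and AhR-d 2 and AhR-d 3 spanned much the same range as the AhR null arrays.

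Mpo, which makes the enzyme that forms hypochlorous acid, had levels of 4.59, 4.47 and 4.78 in control, 4.96, 7.46 and 6.47 in AhR-d, and 5.87, 6.06 and 6.20 in AhR null cultures. All AhR-d and AhR null arrays lay above all controls, but AhR-d 1 was not detected. The Mpo pattern rests on 1 of its 3 probes, because the other 2 were detected on 0 arrays, with lowest detection p-values of 0.0138 and 0.0414.

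Elane encodes neutrophil elastase, and its levels were 5.18, 5.37 and 5.57 in control, 4.74, 6.98 and 6.91 in AhR-d, and 5.04, 5.46 and 5.94 in AhR null cultures. It was detected on AhR-d 2, AhR-d 3 and AhR null 3. Its AhR null levels overlapped the controls, while those of its chromosomal neighbour Prtn3 did not.

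The secondary granule genes were at or near background on most arrays. Ltf, which encodes the iron-binding protein lactoferrin, had levels of 4.93, 4.83 and 4.67 in control, 5.08, 6.37 and 7.41 in AhR-d, and 5.62, 4.82 and 5.95 in AhR null cultures. It was detected on AhR-d 2, AhR-d 3 and AhR null 3, by 1 of its 2 probes, and the other probe was detected on 0 arrays. Its AhR null levels overlapped the controls.

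Lcn2 encodes lipocalin 2, which binds bacterial siderophores. Its levels were 4.79, 4.57 and 4.80 in control, 4.51, 6.28 and 6.16 in AhR-d, and 5.13, 4.79 and 4.92 in AhR null cultures. It was detected on AhR-d 2 alone, with a detection p-value of 0.005, and AhR-d 3 followed with 0.0163.

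Ngp, the neutrophilic granule protein, was detected on 0 arrays, with levels from 4.50 to 5.86 and a lowest detection p-value of 0.0301. Camp, the cathelicidin precursor, was also detected on 0 arrays. Its levels were 4.52, 4.46 and 4.52 in control, 4.63, 4.59 and 4.66 in AhR-d, and 4.71, 4.89 and 4.55 in AhR null cultures, with a lowest detection p-value of 0.293. Camp was not above background anywhere, so its order among arrays carries no level.

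Detection does not depend on scaling between arrays, and it split the arrays in the same way. None of the 10 genes was detected on control 1, 2 or 3 or on AhR-d 1. On AhR-d 2 and AhR-d 3, 8 and 7 genes were detected, and on AhR null 1, 2 and 3, 5, 5 and 7. AhR-d 1 was not a dim array, since 39.9% of all features were detected on it and its mean intensity was the highest of the 9. The 5 genes S100a8, S100a9, Chil3, Prtn3 and Mpo shared one pattern, detected on AhR-d 2, AhR-d 3 and all 3 AhR null arrays and on no other. That pattern belonged to 14 of 18312 features, or 0.0765%. Of the 10 genes, 8 were detected somewhere but on no control array, which held for 5.91% of all features.

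**Figure D2:**
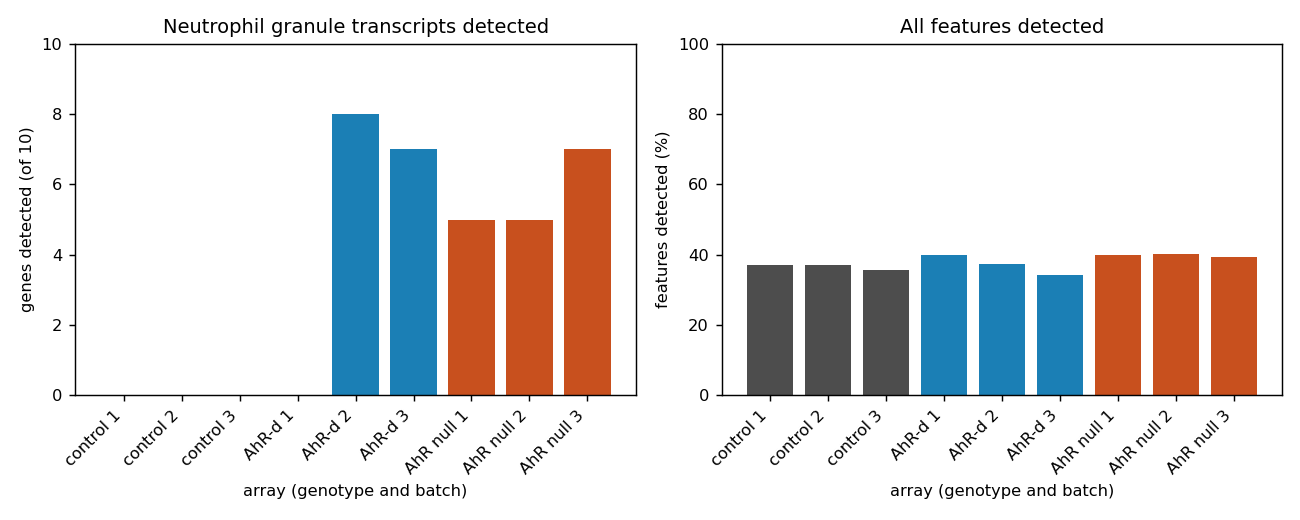
Left, the number of the 10 genes detected at a detection p under 0.01 on each array; right, the percentage of all 18312 features detected on the same arrays, as bars from 0. The 10 genes were detected 0 times on the 3 control arrays and AhR-d 1 and between 5 and 8 times on the others, while 34.2% to 40.3% of all features were detected throughout.

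AhR null cultures were compared with control cultures to ask how loss of the receptor bears on these transcripts. S100a8, Chil3 and Prtn3 rose, and S100a9 and Mpo were higher in every batch without passing the test. In bulk RNA, more cells that carry a transcript and more transcript per cell cannot be told apart. The test was limma's over 7449 features, 7 of the 10 genes among them, with a Benjamini-Hochberg adjusted p under 0.05. The other 3 (Ngp, Camp and Lcn2) did not reach the minimum of 3 arrays with detection, and the 7 could reach it only through arrays on which they were high. Of the 7 tested, 3 were called higher, beside 6.56% of all tested features, and 0 were called lower, beside 5.8%.

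S100a8 was 9.54 ± 0.44 in AhR null and 4.65 ± 0.15 in control cultures (SD, n = 3), a log2 difference of 4.89 with a standard error (SE) of 1.25 and an adjusted p of 0.0208 in limma. Because the controls were not above background, the difference is a bound, at least 10.9-fold. The bound divides the AhR null mean by the mean, over control arrays, of the lowest detected signal of each array. The difference was 4.47, 5.12 and 5.07 in batches 1, 2 and 3, so it was similar in all batches.

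Chil3 was 8.32 ± 0.62 in AhR null and 4.76 ± 0.12 in control cultures (SD, n = 3), at least 4.7-fold higher. Its log2 difference was 3.55 (SE 0.98, adjusted p = 0.0311), with 2.93, 3.76 and 3.98 in the batches. Prtn3 was 6.76 ± 0.30 against 4.89 ± 0.35 (SD, n = 3), at least 1.6-fold higher. Its log2 difference was 1.87 (SE 0.50, adjusted p = 0.0264), with 1.93, 1.83 and 1.86 in the batches, the narrowest range among the 3 called genes.

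S100a9 was 7.38 ± 0.26 against 4.64 ± 0.13 (SD, n = 3), at least 2.46-fold higher by its levels, with a log2 difference of 2.74 (SE 0.91) that missed the threshold at an adjusted p of 0.0665. Mpo was 6.04 ± 0.17 against 4.62 ± 0.15 (SD, n = 3), with a difference of 1.43 (SE 0.50, adjusted p = 0.0751) and no bound above 1. Each SE was estimated over all 3 genotypes, so it took in the spread of the AhR-d arrays too. With batch as a block S100a9 and Mpo passed, at adjusted p-values of 0.0142 and 0.0322. That fit called 5 of the 7 genes higher, beside 10.8% of all features, with S100a8, Chil3 and Prtn3 at 0.00182, 0.00272 and 0.00269. Elane differed by 0.11 (SE 0.52, adjusted p = 0.918) and Ltf by 0.65 (SE 0.51, adjusted p = 0.439). Both had AhR null levels that overlapped the controls.

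All AhR null arrays lay above all control arrays for 6 of the 10 genes, beside 9.9% of 18312 features with no detection filter. These were the 5 genes above and Camp, whose levels were not above background. The median difference over the 10 genes, Ngp and Camp included, was 1.04, and over all features -0.03. In fits that left out 1 array, the count of genes called higher ran from 0 to 5. It was 0 without control 1, control 3 or any 1 of the AhR null arrays, where adjusted p for S100a8 ran from 0.0509 to 0.0721, and 5 without AhR-d 1 or AhR-d 2, beside 961 and 904 of all 7449 features called in either direction. Without background correction 1 gene was called, and with robust variances 1, each time Prtn3, with adjusted p-values of 0.0334 and 0.0239. The size also depended on processing: the S100a8 difference was 2.30 without background correction, 2.67 from the deposited log2 values and 7.52 with array brightness as a covariate. For Chil3 these values were 1.37, 1.67 and 5.57, and for Prtn3 0.55, 0.71 and 2.40.

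**Figure D3:**
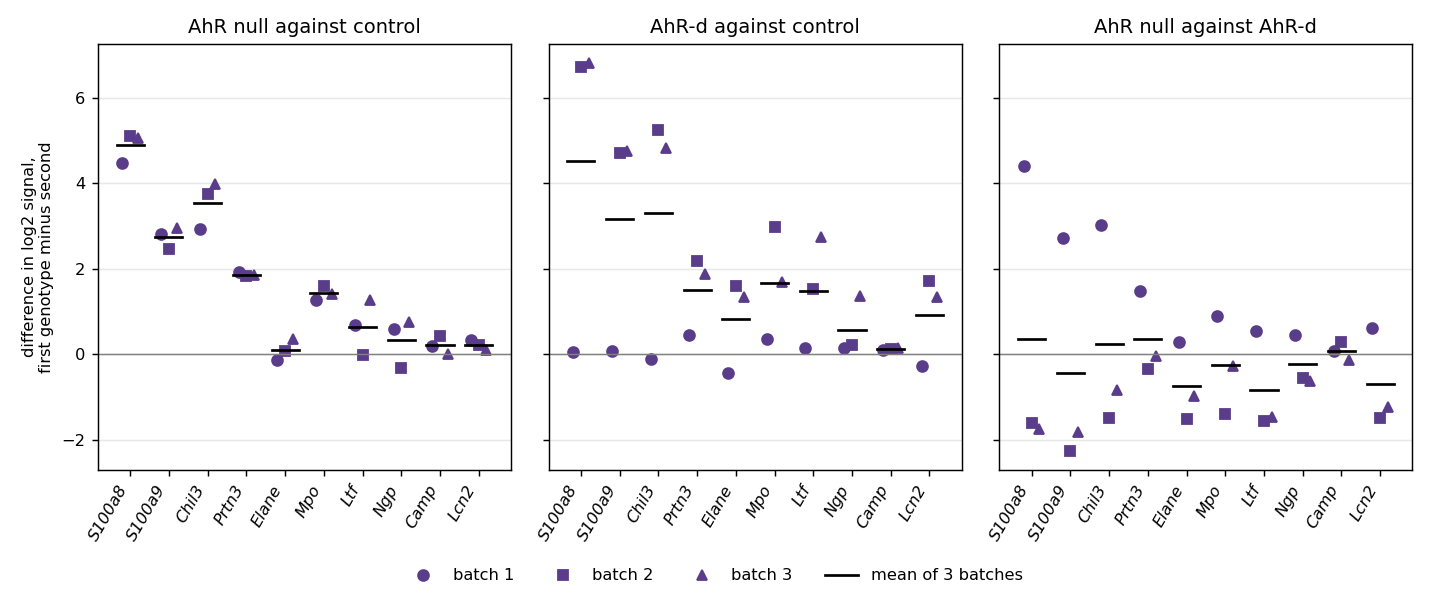
Difference in normalised log2 intensity (vertical axis) of each gene (horizontal axis) between 2 genotypes in each batch, with 1 panel per comparison and points for batches 1, 2 and 3. For S100a8 the AhR null minus control differences were 4.47, 5.12 and 5.07, and the AhR-d minus control differences were 0.06, 6.73 and 6.81.

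AhR-d cultures were compared with the same control arrays, so the comparisons share their controls. In batch 2, 8 of the genes were detected on either array, and all 8 were higher in the AhR-d than in the control culture. In batch 3 this held for 7 of 7, and in batch 1 none of the 10 was detected on either array. Among all features detected on either array, 48.3% were higher in batch 2 and 48% in batch 3. No gene passed the test over 3 arrays: 0 of 7 were called higher in limma, beside 0.282% of all tested features, and 0 lower, beside 0.0537%. At an unadjusted p under 0.05, 6 of the 7 passed, beside 7.53% of all tested features in either direction.

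S100a8 was 9.18 ± 3.93 in AhR-d cultures (SD, n = 3), and its difference from control was 4.53 (SE 1.25, adjusted p = 0.205), with 0.06, 6.73 and 6.81 in batches 1, 2 and 3. S100a9 was 7.83 ± 2.81 (SD, n = 3), a difference of 3.18 (SE 0.91, adjusted p = 0.24), with 0.08, 4.71 and 4.76 in the batches. Chil3 was 8.08 ± 3.01 (SD, n = 3), a difference of 3.32 (SE 0.98, adjusted p = 0.268), with -0.11, 5.25 and 4.82 in the batches. The controls were not above background, and 2 of the 3 AhR-d arrays measured these genes. With each control array set at its lowest detected signal, the ratios were 8.55-fold for S100a8, 3.34-fold for S100a9 and 3.99-fold for Chil3. These are not strict lower limits, because the reading of AhR-d 1, below detection, entered the AhR-d mean as it stood. The S100a8 difference was 2.66 without background correction, 2.49 from the deposited values and 5.73 with the brightness covariate. For these genes the spread among AhR-d arrays was several times that of the AhR null or control arrays.

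Prtn3, Mpo and Elane of the primary granules and Ltf of the secondary granules had smaller differences of the same shape. The primary granule gene Ctsg, not one of the members, went the other way in every batch, with -1.84, -0.74 and -0.91. Its mean log2 difference was -1.17 (SE 0.54, adjusted p = 0.655 in limma). Prtn3 differed by 1.51 (SE 0.50, adjusted p = 0.349), with 0.45, 2.18 and 1.89 in the batches. Mpo differed by 1.68 (SE 0.50, adjusted p = 0.261), with 0.36, 2.99 and 1.69. Elane differed by 0.84 (SE 0.52, adjusted p = 0.774) and was lower than its batch's control on AhR-d 1, with -0.44, 1.61 and 1.35. Ltf differed by 1.48 (SE 0.51, adjusted p = 0.37), with 0.15, 1.54 and 2.74 in the batches. With controls set in the same way, the ratios were 1.24-fold for Prtn3, 1.16-fold for Mpo, 1.09-fold for Elane and 1.15-fold for Ltf. They too are not strict lower limits. The group differences of Lcn2, Ngp and Camp were 0.93, 0.58 and 0.13, without a test.

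With batch as a block, 3 genes were called higher, beside 1.17% of all features, namely S100a8 (adjusted p = 0.0194), S100a9 (0.0346) and Chil3 (0.0256). Without AhR-d 1 the differences were 6.80 for S100a8, 4.81 for S100a9, 5.05 for Chil3, 2.21 for Prtn3, 2.35 for Mpo, 1.58 for Elane and 2.08 for Ltf. AhR-d 1 was singled out because these genes were low on it, so the values without it are a description and carry no test.

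All 3 AhR-d arrays lay above all control arrays for 3 of the 10 genes (Mpo, Ltf and Camp), beside 4.75% of 18312 features. On AhR-d 1 none of these was above background. The median difference over the 10 genes, Ngp and Camp included, was 1.49, and over all features -0.01.

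The direct comparison of AhR null with AhR-d cultures changed sign between batches. In batch 1 the 5 genes detected on either array (S100a8, S100a9, Chil3, Prtn3 and Mpo) were all higher in the AhR null culture. In batch 2 all 8 genes detected on either array were lower there, and in batch 3 all 7. Of all features detected on either array, 50.3%, 49.5% and 49.7% were higher in the AhR null culture in batches 1, 2 and 3.

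Over 3 arrays each, 0 of the 7 tested genes were called higher or lower, beside 0.819% of all features higher and 1.66% lower, and 0 passed an unadjusted p under 0.05 in limma. S100a8 differed by 0.35 (SE 1.25, adjusted p = 0.926), from 4.40 in batch 1 to -1.60 and -1.74 in batches 2 and 3. S100a9 differed by -0.44 (SE 0.91, adjusted p = 0.856), with 2.73, -2.25 and -1.81 in the batches. Without AhR-d 1 the differences were -1.92 for S100a8, -2.07 for S100a9 and -1.50 for Chil3, again as a description with no test. Of the 8 genes detected on AhR-d 2 or AhR-d 3, 7 had both of these arrays above all 3 AhR null arrays, and Prtn3 was the exception. The same order held for 15.5% of all features. Because the 8 genes were picked by detection on those arrays, the count is a description. All AhR null arrays lay above all AhR-d arrays for 0 of the 10 genes, beside 7.4% of all features.

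Whether the genes were high on the same arrays was then examined within each genotype. In AhR-d cultures AhR-d 1 was the lowest array for S100a8 and for 9 of the 10 genes counting S100a8, beside 34% of all features, and Camp was the exception. Ngp, one of the 9, was not above background on any array. AhR-d 3 was the highest for 5 of them, beside 37.1%. In AhR null cultures AhR null 1 was lowest for 5 genes, beside 31.5% of all features, and AhR null 3 was highest for 6, beside 33.9%. In control cultures control 2 was lowest for 5, beside 34.5% of all features, and control 3 highest for 7, beside 37%, all below detection. These counts, from readings not above background, were as high as those in AhR null cultures.

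Values centred on their genotype mean were correlated with S100a8 over the 9 arrays, in 9 relations, with an exact two-sided permutation of arrays within genotypes whose smallest possible p is 0.00463. This permutation treats the arrays of a genotype as exchangeable and does not take account of the batches they share across genotypes. Its p-values are not adjusted for the 9 relations. For Chil3 Pearson's r was 0.99 (exact permutation p = 0.0324) and Spearman's rho 0.98 (p = 0.0139). For S100a9 r was 0.99 (exact permutation p = 0.088) and rho 0.85 (p = 0.0787). Elane had an r of 0.96 (exact permutation p = 0.0185) and a rho of 0.93 (p = 0.0278), although its AhR null mean was near the control mean. It was detected on 3 of the 9 arrays, so most of its values were background readings.

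Mpo had an r of 0.90 (exact permutation p = 0.162) and a rho of 0.97 (p = 0.0139), and Prtn3 an r of 0.91 (p = 0.13) and a rho of 0.72 (p = 0.157). Among the secondary granule genes r was 0.95 for Lcn2 (exact permutation p = 0.264), 0.81 for Ltf (p = 0.144), 0.63 for Ngp (p = 0.431) and -0.02 for Camp (p = 0.963). An r at least as high as that of S100a9 or Chil3 was found for 0.0109% and 0.0164% of all features. These shares count S100a8 itself, S100a9 and Chil3, and hold no other feature.

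Without the 2 arrays farthest from the median of centred S100a8, AhR-d 1 and AhR-d 3, r remained high for Chil3 at 0.98, Elane at 0.93 and Mpo at 0.89. It was 0.47 for S100a9, 0.43 for Prtn3, -0.05 for Ltf and -0.48 for both Lcn2 and Ngp, so for these genes the relation rests on those arrays. Centring leaves no deviation on AhR-d 2, the AhR-d array kept, so these values come from the AhR null and control arrays. No gene was detected on the control arrays, and among AhR null arrays Elane was detected on AhR null 3 alone. With batch means removed as well as genotype means, r with S100a8 over all 9 arrays was 0.99 for S100a9 and Chil3, 0.98 for Prtn3, 0.97 for Lcn2, 0.96 for Elane, 0.88 for Ltf, 0.86 for Mpo, 0.62 for Ngp and 0.04 for Camp, as a description. The summed linear level of the 10 genes was 265 to 288 on the control arrays, 274 on AhR-d 1, 4820 and 5370 on AhR-d 2 and AhR-d 3, and 1220, 1660 and 2020 on the AhR null arrays.

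Other neutrophil genes were read from lists of granule, cytosol, surface and regulator genes, which hold the genes above too. Of 14 secondary and tertiary granule genes on the table, 8 were detected on 0 arrays, among them the collagenase Mmp8 and the surface protein Cd177, and the 2 tested were Chil3 and Ltf. Of 24 cytosol and surface genes, 12 were detected on at least 1 array and 12 were detected on 0 arrays, among them Csf3r, the receptor for G-CSF, and Cxcr2, the receptor for neutrophil-attracting chemokines. Of 8 granulocyte transcription factor genes, Cebpb, Spi1, Runx1, Myb and Gfi1 were detected on all 9 arrays, and Cebpa, Cebpe and Irf8 on 0. Ly6g, the usual surface marker of mouse neutrophils, was not analysed here.

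In AhR null against control cultures, 1 of 5 primary granule genes tested rose (Prtn3; 2 with batch as a block) and 1 fell. The one that fell was Ctsg, the cathepsin G gene, whose log2 difference was -1.77, with an SE of 0.54 and an adjusted p of 0.0471. Its levels were 7.75, 8.12 and 8.60 in control, 5.90, 7.38 and 7.68 in AhR-d, and 6.28, 5.26 and 7.62 in AhR null cultures, so it did not follow Prtn3, Elane and Mpo. Ms4a3, also a primary granule gene, read 5.13, 5.67 and 6.51 in control, 5.49, 6.98 and 6.57 in AhR-d, and 5.45, 5.78 and 5.77 in AhR null cultures. Its AhR null levels lay within the control range. The Ctsg call held in 9 of 18 other settings, where its difference ran from -2.39 to -0.56 and its adjusted p from 0.00434 to 0.448. Ctsg is known as a mast cell product as well.

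Of 9 cytosol and surface genes tested, 4 rose in AhR null cultures and 1 fell. Beside S100a8 these were Clec4d, a C-type lectin receptor of myeloid cells, at 2.30 (adjusted p = 0.00653), the cytokine gene Il1b at 1.69 (0.00756) and Slpi, a protease inhibitor, at 2.84 (0.0236). Il1r2, the decoy receptor for IL-1, fell by 3.26 on the log2 scale (adjusted p = 0.000204). With batch as a block 7 of the 9 rose, S100a8 and S100a9 among them, beside 10.8% of all features. The Slpi call held in 11 of 18 other settings, with adjusted p from 9.77e-06 to 0.167, and the Clec4d and Il1b calls were lost with array brightness as a covariate (0.0786 and 0.102). Without background correction the differences of Clec4d, Il1b and Il1r2 were 0.81, 1.02 and -1.24. Of 5 granulocyte transcription factor genes tested, 0 rose and 2 fell, Runx1 by 1.30 (adjusted p = 0.00193) and Gfi1 by 0.79 (0.0398). Both calls were lost with the deposited log2 values, at -0.54 (adjusted p = 0.237) and -0.12 (0.748), and with median scaling, at -0.68 (0.29) and -0.14 (0.842). Over all 18 other settings the Gfi1 call held in 9 and the Runx1 call in 16. The median difference was 0.11 over the primary granule genes tested, 1.69 over the cytosol and surface genes and -0.48 over the transcription factors, beside -0.03 over all features. In AhR-d against control cultures limma called 0 of the 21 genes tested from these 4 lists, which include the 7 tested above. With batch as a block it called 4 higher, beside 1.17% of all features. These were S100a8, S100a9, Chil3 and Slpi. At an unadjusted p under 0.05, 11 passed, 6 of them among those 7, beside 7.53% of all features in either direction.

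Markers of other myeloid cells were read on the same arrays. The monocyte and macrophage genes had only partly the array order of the 10 genes, while the eosinophil sum split the arrays as those genes did. The summed level of 14 monocyte and macrophage genes was 1440 to 3840 in control, 2830 to 15300 in AhR-d and 3620 to 8690 in AhR null cultures, with AhR-d 1 the lowest AhR-d array and AhR null 1 (3620) below control 3 (3840). Of 6 tested, 3 rose in AhR null cultures (Apoe, Lyz2 and Lyz1, by 3.69, 3.06 and 2.61 on the log2 scale) and 1 fell (Cx3cr1), with a median of 1.39. The Lyz2 and Lyz1 calls held in 10 and 11 of 18 other settings, the Cx3cr1 call in 15 and the Apoe call in 18. In AhR-d cultures the main fit called 0 of the 6, and limma with batch as a block called 3. These were Lyz1 (adjusted p = 4.56e-05), Lyz2 (0.000145) and Apoe (0.00228). Lyz1 and Lyz2 were also called with the deposited log2 values, with median scaling and with no detection filter. Lyz2, a lysozyme gene of neutrophils and macrophages, had levels of 5.18, 7.45 and 9.13 in control, 8.92, 12.38 and 11.94 in AhR-d, and 9.67, 10.03 and 11.24 in AhR null cultures. Of the 14, 5 were detected on 0 arrays (C1qa, C1qc, Ccr2, Fcgr1 and Itgam). The complement gene C1qb was detected on 3 arrays, at 6.66 and 6.73 on AhR-d 2 and AhR-d 3 and 6.51 on AhR null 3.

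Prg2, which encodes the major basic protein of eosinophil granules, had the same detection pattern as S100a8. Its levels were 4.58, 4.55 and 5.01 in control, 4.67, 10.59 and 8.36 in AhR-d, and 7.52, 7.70 and 6.35 in AhR null cultures. The summed level of 7 eosinophil genes was 219 to 228 in control and 306 to 446 in AhR null cultures. It was 225, 1990 and 606 on AhR-d 1, 2 and 3, so AhR-d 1 lay among the controls, as for S100a8. Siglecf, Il5ra and Prg3 were detected on 0 arrays. Ear6, an eosinophil ribonuclease gene, was detected on 3 arrays, at 7.35 on AhR-d 2, 5.84 on AhR null 2 and 5.78 on AhR null 3, and Epx, the eosinophil peroxidase gene, was detected on AhR-d 2 alone, at 6.93. Neither eosinophil gene tested passed, although Prg2 was 2.48 higher on the log2 scale in AhR null than in control cultures (SE 0.99), with an adjusted p of 0.119 that became 0.0407 with batch as a block. The summed level of 12 mast cell genes was 182000 to 203000, 192000 to 206000 and 193000 to 214000 in the 3 groups. For 4 basophil genes it was 10500 to 11400 in control and 12100 to 14100 in AhR null cultures. On AhR-d 1, 2 and 3 the basophil sum was 9300, 13700 and 14100. It too was above all controls on AhR-d 2, AhR-d 3 and every AhR null array, but not on AhR-d 1. Of 3 basophil genes tested, 1 rose in AhR null cultures, the protease gene Prss34, by 2.94 (adjusted p = 0.00239). Of 12 mast cell genes tested, 4 rose in AhR null cultures (Hdc, Slc18a2, Tpsab1 and Mcpt4) and 1 in AhR-d cultures (Hdc), with medians of 0.12 and 0.14 over the list. With batch as a block 5 rose and 1 fell in AhR null cultures, and 2 mast cell genes and 1 basophil gene rose in AhR-d cultures. The Mcpt4 and Tpsab1 calls held in 10 and 15 of 18 other settings. The part of other cells in the results for the 10 genes was not tested.

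**Figure D4:**
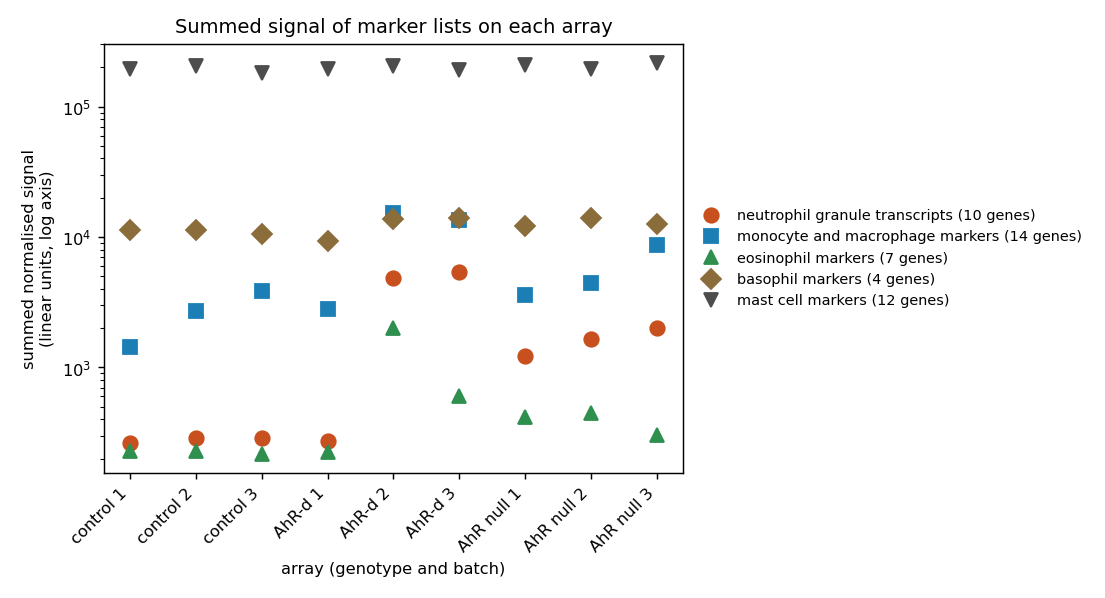
Summed linear level (vertical axis, log scale) of the genes in each list on each of the 9 arrays (horizontal axis, by genotype and batch number). The monocyte and macrophage genes and the eosinophil genes were highest on an AhR-d array (15300 and 1990), while the mast cell genes stayed between 182000 and 214000. Quantile normalisation largely fixes a sum over genes as bright as the brightest mast cell genes.

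The named genes most like S100a8 were taken as the 5 with the highest Pearson r over the 9 normalised arrays, out of 6857 tested genes that are not members. They were Glipr2 (0.976), Skp1 (0.927), Anxa3 (0.916), Zcchc10 (0.915) and Sox7 (0.912), given as a description of 9 arrays. The members Chil3, S100a9, Prtn3 and Mpo had values of 0.996, 0.985, 0.96 and 0.946 by the same measure. Glipr2 ran from 8.88 to 9.05 on the control arrays and AhR-d 1, and from 9.61 to 9.93 on the other 5, a far smaller step than that of S100a8. Anxa3, which encodes an annexin abundant in neutrophils, read 6.54, 7.24 and 6.69 in control, 6.99, 8.83 and 8.80 in AhR-d, and 8.90, 9.48 and 9.09 in AhR null cultures. Unlike S100a8, it was detected on all 9 arrays, and it rose in AhR null cultures by 2.33 (SE 0.41, adjusted p = 0.00211).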

How the data were processed

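Total RNA from 9 mast cell cultures was hybridised to Illumina mouse Ref-8 beadchips, 1 array per culture. The deposited probe table holds linear intensity that the authors did not scale between arrays, and, per the file headers, a detection p-value beside each intensity. The submitters' processing notes name GenomeStudio, without a version. A deposited series table holds log2 values, which equal the log2 intensity less 1 constant per array (values within 0.000101), so that each array's median is 8. A deposited table of 45 probes holds none of the 10 genes and was not used.

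From these values, neqc in limma 3.58.1 (R 4.3.3) removed background by normexp with the detection p-values, added 16 to each signal, brought the arrays to the same quantiles and took log2. Probes detected at a p under 0.01 on at least 3 arrays were kept, 9777 of 25697. The platform annotation gave 23978 probes 1 symbol and left 1719 unnamed; RefSeq identifiers changed 0 symbols. The probe with the highest mean stood for a gene, which left 7449 features (6864 named genes). One limma fit of genotype means over 9 arrays, with an intensity trend and 6 residual degrees of freedom, gave all 3 comparisons. The script was tested on simulated data. The number of arrays limits the precision of every value.

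Same-batch pairs of arrays had deviations from the genotype means that correlated at 0.111 to 0.361 (9 pairs), and different-batch pairs at -0.361 to 0.0676 (18 pairs). With the batch numbers in the labels, this pairs the arrays, and the blocked fit is quoted where it changes a result.

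The text names all 10 members, up to 4 called genes with the smallest p of each further list, and the 5 genes most like S100a8. Genes named because they were not detected, the mast cell genes used to check the labels, Ms4a3, Prg2 and the genes that shared the detection pattern were chosen after their values were seen. The members and lists were chosen with earlier results of these data known. Each result was also computed from the deposited log2 values, after median scaling, without background removal, with no filter or a stricter one, with only the groups compared, with robust variances, with array brightness as a covariate and with each array left out.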

Additional observations from a re-analysis of the deposited data

How the results depend on the processing

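For AhR-d against control, the 7 members tested kept their direction in all 119 recomputed values, and for AhR null against control in 118 of 119; the exception was Elane, from -0.12 without AhR null 3 to 0.33 without AhR null 1. How many members were called higher did depend on the setting. For AhR null against control, 3 were called; the count was 5 with batch as a block, with the deposited log2 values, with median scaling or with only the 2 groups fitted, and 1 without background correction or with robust variances. Leaving out 1 array gave 0 to 5. For AhR-d against control, 0 were called; the count was 3 with the block, with median scaling or with brightness as a covariate, 1 with the deposited values, and 0 to 5 with 1 array left out, where the 5 came without AhR-d 1, beside 46 of 7449 features. That array was singled out for its low members, so the count without it is a description. The block changed no other call of a member. A gene's SE was estimated over all 3 genotypes. For S100a8 it was 1.25, where SDs were 0.44 in AhR null, 0.15 in control and 3.93 in AhR-d cultures. In AhR null against control, adjusted p for S100a8 was 1.28e-06 with only the 2 groups fitted and 0.144 with robust variances in limma. For S100a9 and Mpo it was 0.000116 and 0.0128 with only the 2 groups, and neither passed with robust variances. The cause of the changes in these counts was not tested.

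For AhR null against AhR-d, 14 of 119 values reversed. Mpo became 0.02 with the deposited values, 0.22 with median scaling and 0.11 with the brightness covariate. S100a9 became 0.18 with median scaling and 0.53 with the covariate. S100a8 and Chil3 became -0.36 and -0.25 without background correction. With 1 array left out, the lowest values all came without AhR-d 1. They were -1.92 for S100a8, -2.07 for S100a9, -1.50 for Chil3, -0.34 for Prtn3 and -0.92 for Mpo, and the highest were 1.58, 0.38, 1.15, 0.87 and 0.33. Without AhR-d 2, S100a9 was 0.35, and without AhR null 3, Chil3 was -0.05. Il1r2 in AhR-d against control ran from -0.96 to 0.12. At a detection p under 0.05, 1 member was detected on control 3 in place of 0. With batch effects removed as a replicate block, AhR null 1 was the lowest AhR null array for 2 members in place of 5. Median scaling moved the median of all features to 0.53, 0.16 and 0.38 in the 3 comparisons, and the deposited values to 0.29, 0.06 and 0.24. No member passed a filter of detection on at least 6 arrays, so that setting gave no value.

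Over all features, 921 were called in AhR null against control, with 1580 under the block, 322 with the covariate and 503 to 1000 with 1 array left out. In AhR-d against control 25 were called, with 118 under the block, 9 with the deposited values, 41 with median scaling, 7 without background correction, 10 with only the 2 groups and 5 to 46 with 1 array left out. In AhR null against AhR-d 185 were called, with 502 under the block, 124 with median scaling, 110 with the covariate and 82 to 243 with 1 array left out. Signals near background, as for Ngp, Camp and Lcn2, set a floor below which no level could be read.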

Other observations

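Apart from the 5 neutrophil genes, 6 named genes were detected on AhR-d 2, AhR-d 3 and the 3 AhR null arrays and on no other: Akr1c18, Dpp6, Prg2, Sox7, Stxbp3 and Tspan17. Akr1c18, which encodes a progesterone-metabolising reductase, read 4.70, 4.88 and 4.88 in control, 5.10, 8.65 and 6.45 in AhR-d, and 7.77, 5.68 and 5.86 in AhR null cultures. Tspan17, a tetraspanin gene, read 5.21, 5.41 and 5.50, then 5.40, 6.20 and 6.65, then 6.41, 6.42 and 7.07. Of the 6, Tspan17 passed the test in AhR null against control cultures, at 1.26 (SE 0.36, adjusted p = 0.0361). Prg2 differed by 2.48 (SE 0.99, adjusted p = 0.119) and Akr1c18 by 1.62 (SE 0.72, adjusted p = 0.158). Dpp6 and Stxbp3 differed by 0.16 and 0.02, so a shared detection pattern did not mean a shared size of difference. These genes were chosen after their values were seen.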
